A study of Arabidopsis thaliana with 6 samples.

Results

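A set of 82 probe sets, for 81 genes of *Arabidopsis thaliana*, was lower on both replicate 3 arrays of a comparison of *bp er fil-10* with *bp er* inflorescences. Members were found among the 13513 probe sets that the platform annotation gave to a single gene, of 22810 probe sets on the Affymetrix ATH1 array. Each signal under 100 was raised to 100 and converted to log2, and within each genotype the mean of replicates 1 and 2 was subtracted from replicate 3. A probe set was a member when this shift was -1 or less, a fall of 2-fold or more, in both genotypes. Of the 13513, 87 met the shift (0.644%), and 5 of these were set aside by name, namely *GI*, *COR27*, AT4G33980 (COR28 in the gene lists used), *AKINBETA1* and AT2G20670. Among the 5705 of the 13513 with a mean of replicates 1 and 2 of at least 200 in both genotypes, high enough for a 2-fold fall to be seen above the floor, the 87 were 1.52%. The members were thus chosen by these shifts, which are given as a description, with no test.

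RNA came from inflorescences of 5-week-old plants with buds no later than floral stage 13, 3 biological replicates of each genotype on 6 arrays. *bp er fil-10* carries mutations of *FILAMENTOUS FLOWER*, a YABBY transcription factor gene of the abaxial side of lateral organs, of the homeobox gene *BREVIPEDICELLUS* and of the receptor kinase gene *ERECTA*. *bp er*, its parent line, carries the last pair of these, and *bp-2 er* was the stock that was mutagenized. The *fil-10* line goes back to 1 mutagenized plant and was backcrossed to *bp er*. Probe sets of *FIL*, *BP* and *ER* were not analysed here. How many plants went into each array is not given in the sources used here, and no label sets replicate 3 apart other than its number.

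Transcripts of a plant shoot vary with the hour of harvest, with light and darkness and with the supply of sugar. Genes for chlorophyll synthesis and starch turnover follow the day, the breakdown of branched-chain amino acids such as leucine is known to be induced when carbon runs short, and dehydrins and COR proteins accumulate in the cold and are also gated by the circadian clock. Of the members, 14 probe sets carry a gene symbol and 68 are known by the locus tag, 1 of which, AT5G61590, has the synonym DEWAX.

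The median member had signals of 1256, 1259 and 331 in *bp er fil-10*, replicates 1, 2 and 3, against 957, 1126 and 295 in *bp er*. Triplets of signals below are in the same order, replicates 1, 2 and 3, on the linear scale of the deposited values. The median shift was -1.56 in *bp er fil-10*, a 2.95-fold fall, and -1.40 in *bp er*, a 2.64-fold fall. The range ran from -3.72 to -1.0 in *bp er fil-10* and from -4.19 to -1.0 in *bp er*. Over the 14456 probe sets that reached 100 on 3 or more arrays, all 82 members among them, the median shift was 0.02 in *bp er fil-10* and -0.02 in *bp er*. Replicate 3 was the lowest of its 3 arrays for 81 members in *bp er fil-10* and for 82 in *bp er*. In 73 members both replicate 3 signals were below all 4 signals of replicates 1 and 2. In bulk tissue, fewer cells of a type and less RNA per cell cannot be told apart.

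**Figure D1:**
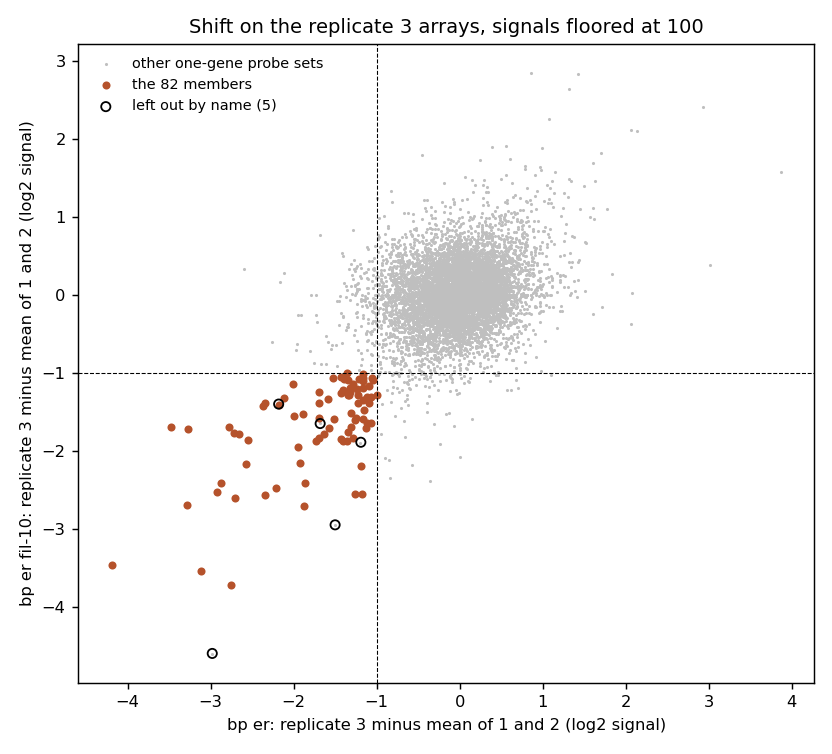
Shift on the replicate 3 array, the log2 signal of replicate 3 minus the mean of replicates 1 and 2 with signals floored at 100, for *bp er fil-10* (vertical axis) and *bp er* (horizontal axis). Each point is a probe set with 1 annotated gene, the 82 members are coloured, the 5 genes set aside by name are open circles, and the dashed lines mark -1. The members reach -3.72 in *bp er fil-10* and -4.19 in *bp er*.

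Ranked by the shift of the genotype in which a member fell less, the first 5 members were genes with no symbol. In *bp er* alone *LTI30*, described below, fell more than 4 of these 5. AT4G30650 had signals of 3400.4, 2353 and 255 in *bp er fil-10*, against 3863, 4948 and 239 in *bp er*, so it stood 11.1-fold in *bp er fil-10* and 18.3-fold in *bp er* below the mean of the first pair of replicates. AT5G62360 had 4079, 3952 and 345 in *bp er fil-10*, against 3518, 3468 and 405 in *bp er*. AT4G32340 followed with 2090.1, 1808 and 148 in *bp er fil-10*, against 1404, 1585 and 220.1 in *bp er*. In these 3 genes replicate 3 was far below the other arrays in both genotypes, and the signals of replicates 1 and 2 lay much nearer to each other. AT3G10020 had signals of 6537, 4969.9 and 879.8 in *bp er fil-10*, against 2477, 3294 and 293 in *bp er*, and AT3G15630 had 4545, 3689 and 674 in *bp er fil-10*, against 2179, 2545 and 360.3 in *bp er*. Both were also higher in *bp er fil-10* in every same-numbered pair. *PORB* was the next in rank, followed by AT1G56300, with shifts of -2.41 in *bp er fil-10* and -2.88 in *bp er*, AT1G25275, with -2.57 in *bp er fil-10* and -2.34 in *bp er*, AT2G39920, with -2.48 in *bp er fil-10* and -2.21 in *bp er*, and AT2G15960, with -2.17 in *bp er fil-10* and -2.57 in *bp er*. For AT2G39920 the replicate 3 signals were below the floor of 100, at 51.0 in *bp er fil-10* and 40.4 in *bp er*, so its shift understates the fall. In all, 21 members had a replicate 3 signal under 100 in at least 1 genotype, 14 in *bp er fil-10* and 16 in *bp er*.

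*PORB* and *PIFI* are members tied to light, and *CCL* is given beside them. *PORB*, protochlorophyllide oxidoreductase B, carries out the light-dependent step of chlorophyll synthesis. Its signals were 10549, 8430.0 and 1631 in *bp er fil-10*, against 8817, 8654 and 1155 in *bp er*, a fall of 5.78-fold in *bp er fil-10* and 7.56-fold in *bp er*. *CCL* (CCR-like), named for its likeness to the clock-regulated transcript CCR, had 12888, 12922 and 2889 in *bp er fil-10*, against 9215, 10439 and 2594 in *bp er*. *PIFI*, needed for the rise of chlorophyll fluorescence after illumination ends, had 5242, 4553 and 2058 in *bp er fil-10*, against 4229, 3964 and 1267 in *bp er*. Replicate 3 lay below replicates 1 and 2 without overlap for all 3 genes, in both genotypes. Genes of light harvesting and Rubisco activation did not share this drop. *RCA*, *LHCB4.1* and *LHCB4.2*, those measured of 22 listed, had shifts between -0.14 and 0.31 in *bp er fil-10* and between 0.24 and 0.35 in *bp er*.

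Both enzymes of starch breakdown among the members fell to a similar degree. *PWD*, phosphoglucan water dikinase, adds phosphate to starch before it can be degraded, and it had signals of 2295, 2131 and 686 in *bp er fil-10*, against 1495, 1456 and 594 in *bp er*. *DPE1*, the plastid disproportionating enzyme, recycles the maltotriose left by starch degradation, and its signals were 1411, 1756 and 526 in *bp er fil-10*, against 1308, 1219.9 and 530.1 in *bp er*. Their shifts were -1.69 in *bp er fil-10* and -1.31 in *bp er* for *PWD*, and -1.58 in *bp er fil-10* and -1.25 in *bp er* for *DPE1*. *IVD*, isovaleryl-CoA dehydrogenase of leucine breakdown, had 1159, 1255 and 423 in *bp er fil-10*, against 783, 791 and 318 in *bp er*. *PDC2*, a pyruvate decarboxylase that leads from glycolysis to ethanol, had 466, 611 and 219 in *bp er fil-10*, against 614, 576 and 256 in *bp er*, a fall of 2.43-fold in *bp er fil-10* and 2.33-fold in *bp er*. All 4 metabolic genes were separated between replicate 3 and the other arrays. *IVD* was the 1 member among the 9 measured genes of a list of 29 genes of sugar starvation and darkness. *AKINBETA1*, set aside by name, was the other gene of that list past the shift in both genotypes.

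Cold-regulated genes were split. *LTI30*, a dehydrin, had signals of 544, 581 and 173 in *bp er fil-10*, against 992, 1259.8 and 74.5 in *bp er*, and its shift differed most between the genotypes, at -1.70 in *bp er fil-10* and -3.48 in *bp er*. *COR15B*, a plastid protein that protects membranes on freezing, had 3393, 2316 and 959 in *bp er fil-10*, against 2469, 2353 and 605 in *bp er*. Of the 4 measured genes of a list of 12, *COR15A* and *COR47* were not members. The shifts of *COR15A*, which lies next to *COR15B*, were -0.54 in *bp er fil-10* and -0.87 in *bp er*, and those of *COR47* were -0.40 in *bp er fil-10* and -0.16 in *bp er*. *COR15A* and *COR15B* are close copies of each other, so their signals may be partly shared and are uncertain.

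Regulators and stress genes made up the other members with symbols. AT5G61590 (DEWAX), an ERF transcription factor that represses wax synthesis, had 4120.4, 3481 and 1152 in *bp er fil-10*, against 1685, 3253 and 242 in *bp er*. Its fall was deeper in *bp er*, by 9.68-fold, than in *bp er fil-10*, by 3.29-fold, with 1 array behind each replicate 3 value. *GID1A*, a gibberellin receptor, had 537, 660.0 and 256 in *bp er fil-10*, against 478, 482 and 182 in *bp er*. *STZ* (ZAT10), a C2H2 zinc finger repressor of stress responses, had 58.6, 452 and 94.4 in *bp er fil-10*, against 231, 277 and 31.7 in *bp er*. It was the exception in *bp er fil-10*, where replicate 1, at 58.6, was lower than replicate 3, at 94.4. AT2G47890, listed among the B-box zinc finger factors, had 270.4, 286 and 11.3 in *bp er fil-10*, against 198, 251 and 19.6 in *bp er*, so that both replicate 3 signals were far below the floor. *KELP*, a transcriptional coactivator, had shifts of -1.29 in *bp er fil-10* and -1.35 in *bp er*. *Fes1B*, named for its homologue Fes1, the Hsp70 nucleotide exchange factor of yeast, had -1.77 in *bp er fil-10* and -2.72 in *bp er*, and *WLIM1*, a LIM-domain actin-binding protein, had -1.07 in *bp er fil-10* and -1.05 in *bp er*.

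**Figure D2:**
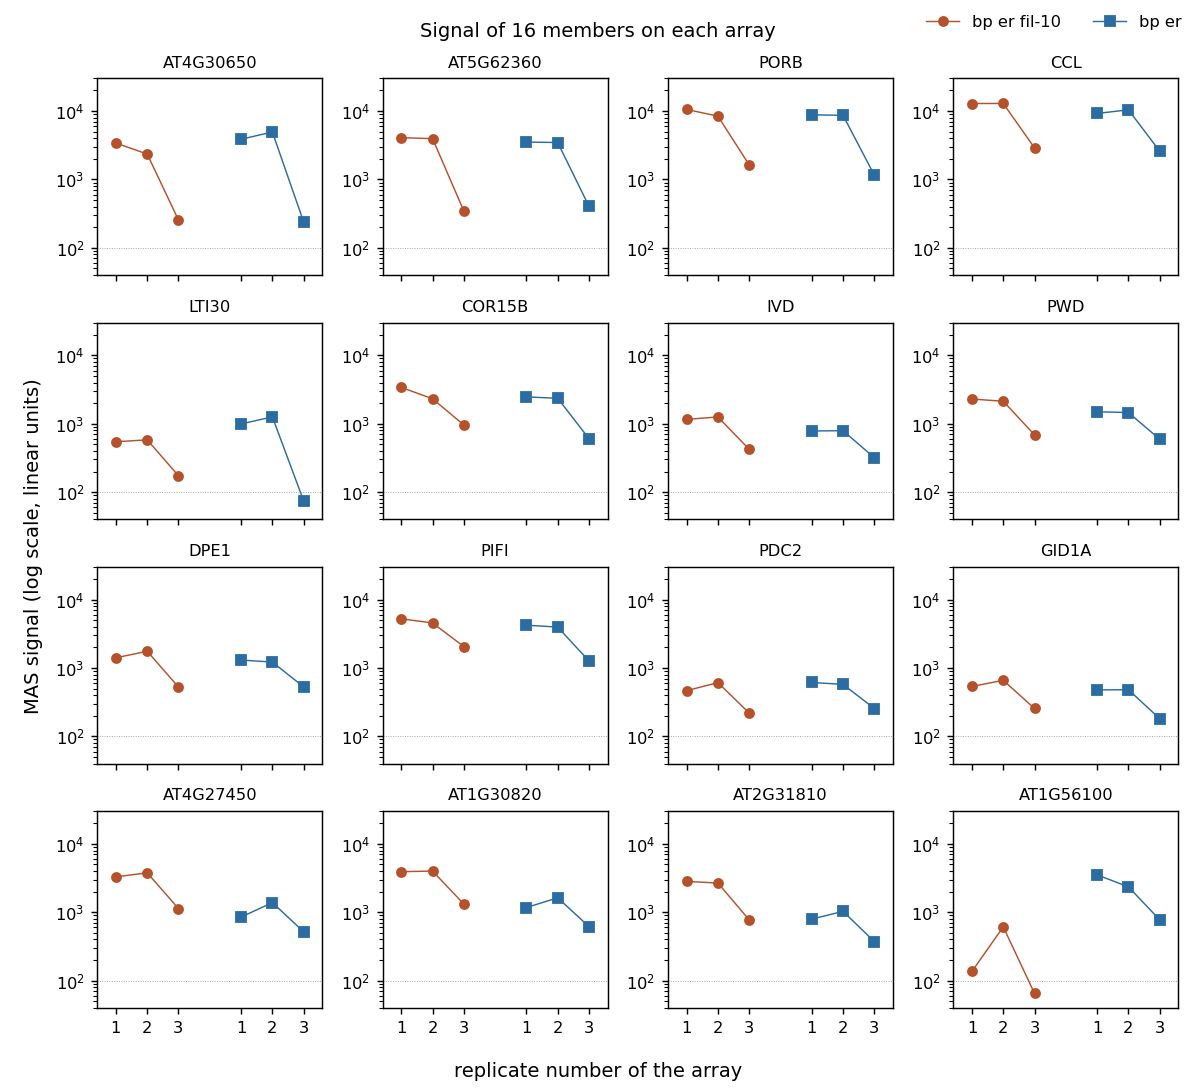
Signal of 16 members on each array (logarithmic axis, linear signal units), by replicate number, with *bp er fil-10* on the left of each panel and *bp er* on the right. The dotted line marks the floor of 100. Replicate 3 is the lowest point of every triplet shown, and in AT1G56100 all 3 *bp er fil-10* signals, 612 at the highest, lie below the lowest of *bp er*, 776.

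AT2G30600 was the 1 gene measured by 2 member probe sets, and both fell in both genotypes. The first probe set had 2699, 2245 and 638 in *bp er fil-10*, against 1301, 2037 and 422 in *bp er*, and the second had 1047, 1080.3 and 288 in *bp er fil-10*, against 565, 828 and 206 in *bp er*. Their shifts were -1.95 in *bp er fil-10* and -1.95 in *bp er* for the first, and -1.88 in *bp er fil-10* and -1.73 in *bp er* for the second. The shift was -2 or less for 16 members in *bp er fil-10* and for 21 in *bp er*, and in both genotypes for 10. It lay between -2 and -1.5 for 28 members in *bp er fil-10* and 16 in *bp er*, and above -1.5 for 38 members in *bp er fil-10* and 45 in *bp er*. The remaining members of the first 25 were AT1G05340, AT3G47160, AT1G76590, AT4G16146, AT5G24490, AT3G62550, AT1G21680, AT4G15680 and AT5G02160, with shifts between -2.71 and -1.58 in *bp er fil-10* and between -2.78 and -1.57 in *bp er*. Just inside the threshold were AT5G27930, with shifts of -1.0 in *bp er fil-10* and -1.36 in *bp er*, AT4G33985, with -1.29 in *bp er fil-10* and -1.0 in *bp er*, and AT5G12270, with -1.01 in *bp er fil-10* and -1.16 in *bp er*. Just outside it were AT5G62900, with -0.99 in *bp er fil-10* and -1.32 in *bp er*, *AGL26*, with -1.04 in *bp er fil-10* and -0.98 in *bp er*, and AT1G78450, with -1.01 in *bp er fil-10* and -0.98 in *bp er*. The values ran on across the threshold without a gap.

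Members had to fall in both genotypes, so a likeness of their shifts is partly built in by the rule. Of all one-gene probe sets, 188 were lower by 1 or more on replicate 3 in *bp er fil-10* and 249 in *bp er*, and 87 in both. Among the members the shift was more negative in *bp er fil-10* for 41 members and in *bp er* for 41, and the median difference between them was -0.01. The genotypes were within 0.5 of each other in 58 members and within 1 in 77. Outside that range were *LTI30*, AT5G61590 and AT3G62550, with the deeper fall in *bp er*, and AT1G22890 and AT2G15880, with the deeper fall in *bp er fil-10*. AT3G62550 had 5469, 4867 and 1598 in *bp er fil-10*, against 4038, 4495 and 619.8 in *bp er*. AT1G22890 had 1581, 1464 and 257 in *bp er fil-10*, against 250.0, 702 and 185 in *bp er*, with a *bp er* replicate 1 signal already near that of replicate 3. AT2G15880 had 649.6, 534 and 65.5 in *bp er fil-10*, against 329.9, 299 and 131 in *bp er*. A difference of this kind rests on 1 replicate 3 array per genotype and has no test.

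Replicates 1 and 2, whose difference the rule did not use directly, differed little in the middle of the set. Replicate 2 minus replicate 1 had a median of -0.01 over the members in *bp er fil-10* and 0.16 in *bp er*. For comparison, the medians of the 5705 one-gene probe sets at 200 or more were 0.02 in *bp er fil-10* and 0.00 in *bp er*. Replicate 2 was above replicate 1 for 40 members in *bp er fil-10* (48.8%) and for 56 in *bp er* (68.3%), against 52.7% of the 5705 probe sets in *bp er fil-10* and 50.7% in *bp er*. The members differed more between replicates 1 and 2 than these probe sets did, since 52 of 82 (63.4%) were within 0.5 in both genotypes, against 82.9%. In 7 members (8.54%, against 1.28%) the difference reached 1 in at least 1 genotype, namely AT1G56100, AT4G15750, AT5G39520, AT5G47350, AT1G22890, AT4G38550 and *STZ*. In *STZ*, AT4G15750, AT5G47350, AT5G39520 and AT1G56100 replicate 1 of *bp er fil-10* lay between 58.6 and 136.5. With replicate 3 raised to the floor, their shift in that genotype was met only through a high replicate 2. The excess of large differences is thus partly built in by the rule. With 1 array per replicate and genotype these shares are a description.

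**Figure D3:**
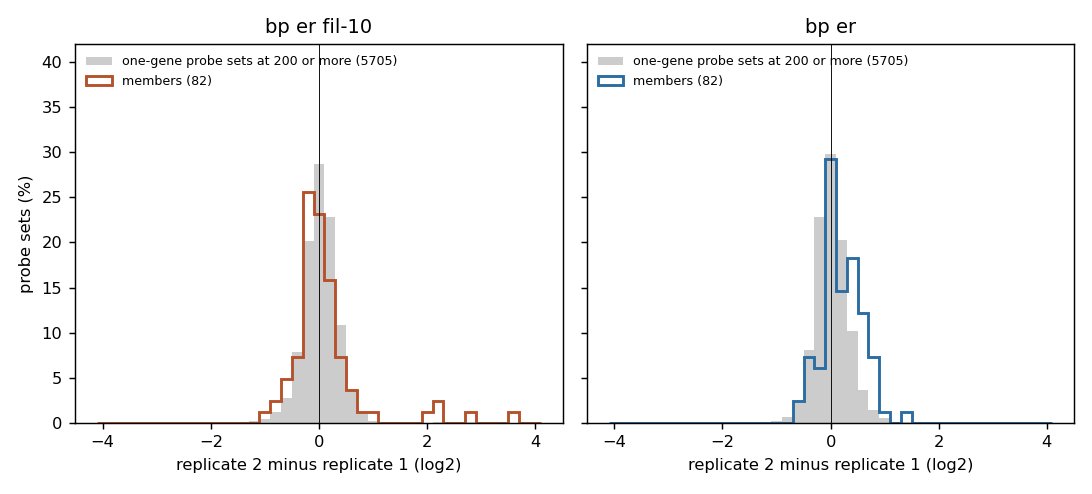
Distribution of replicate 2 minus replicate 1 (log2 signal floored at 100) as the percentage of probe sets per bin of 0.2, for *bp er fil-10* (left) and *bp er* (right). Outlines are the 82 members and filled bars the 5705 one-gene probe sets with a mean of replicates 1 and 2 of at least 200 in both genotypes. The member medians are -0.01 in *bp er fil-10* and 0.16 in *bp er*.

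The genotype comparison, which the rule did not use, asked how the *fil-10* mutation changed the same transcripts. Of the 82 members, 64 were higher in *bp er fil-10* (78.0%), against 56.4% of the probe sets tested, and the median log2 difference, *bp er fil-10* minus *bp er*, was 0.36, against 0.06 over all probe sets tested. With the 3 arrays of a genotype as replicates, limma's test called no member at a Benjamini-Hochberg adjusted p under 0.05, and over all 14456 probe sets it called none higher (0%) and 1 lower (0.00692%). The smallest adjusted p of a member was 0.124. An unadjusted limma p under 0.05 was found for 8 of the 82 members and for 2435 of the 14456 probe sets tested. The spread within a genotype that this test uses was fixed at a high value by the choice of the members, whose replicate 3 signals are low by the rule. With the replicate number as a block, which removes a difference shared by the 2 arrays of a number, 12 members were called higher in *bp er fil-10* (14.6% of the members), against 1.6% of all probe sets tested and 1.7% of the 5705 well-measured ones. Another 4 members were called lower (4.88%), against 2.13% and 1.91%. Of these 4, AT4G15750, AT5G47350 and AT1G56100 met the shift in *bp er fil-10* only through a high replicate 2. The share of members called lower therefore rests in part on that array. Without replicate 3 in either genotype, 19 members were called higher (23.2%), against 4.77% of all probe sets and 5.52% of the well-measured ones, and 5 lower (6.1%), against 4.81% and 4.72%. The means of replicates 1 and 2 entered the rule, but not their difference between genotypes. All 16 members called with the block were also called, with the same sign, in the comparison without replicate 3. Both fits use the arrays of replicates 1 and 2, so this overlap is partly built in, and it was not counted over all probe sets.

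Among the members called higher in *bp er fil-10* were AT1G30820, AT2G31810 and AT2G32150, each of an enzyme family. AT1G30820, a CTP synthase family member, had signals of 3924, 4006 and 1319 in *bp er fil-10*, against 1173, 1629 and 616 in *bp er*, which average 3083 ± 1530.0 in *bp er fil-10* and 1139.7 ± 507 in *bp er* (SD, n = 3 each). Its log2 difference was 1.38 ± 0.16 (SE with the block), with an adjusted p from limma of 0.00827 with the block and 0.219 without it. AT2G31810 is described as the small subunit of acetolactate synthase with an ACT domain, which belongs to the synthesis of branched-chain amino acids. It had 2832, 2675 and 775 in *bp er fil-10*, against 794, 1033 and 372 in *bp er*. The log2 difference was 1.42 ± 0.18 (SE with the block), with a limma adjusted p of 0.00966. AT2G32150, of the haloacid dehalogenase-like hydrolases, had 5876, 5404 and 2321 in *bp er fil-10*, against 2726, 2552 and 1048 in *bp er*. It differed by 1.11 ± 0.13 (SE with the block), with a limma adjusted p of 0.00811. These 3 genes were higher in *bp er fil-10* in every same-numbered pair, and in replicates 1 and 2 the genotypes did not overlap.

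AT4G27450, described as an aluminium-induced protein with YGL and LRDR motifs, had the largest difference of those called higher. It was 1.51 ± 0.18 (SE with the block), with a limma adjusted p of 0.00827. The signals of AT4G27450 were 3296, 3774 and 1134 in *bp er fil-10*, against 850.2, 1386 and 519 in *bp er*. It is the next gene to *PORB* on chromosome 4, and *PORB* itself had a log2 difference of 0.24 ± 0.14 (SE with the block), with a limma adjusted p of 0.356 with the block. The other 8 members called higher were AT5G24490, AT3G10020, AT3G15630, AT1G26665, AT1G25275, AT5G02160, AT1G21680 and AT5G19120, with log2 differences between 0.62 and 1.19 and limma adjusted p between 0.0147 and 0.0499 with the block. AT5G24490 had 10610.4, 11897 and 3140.3 in *bp er fil-10*, against 5555, 6897 and 1916 in *bp er*. AT3G10020 was higher by 1.19, but by 0.10 without *bp er* replicate 3, whose signal was 293. AT3G15630 turned to -0.07 without that array, since a single array left out leaves the low replicate 3 signal in the other genotype alone.

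Of the 4 members called lower in *bp er fil-10*, 3 had the largest genotype differences among the 82. AT4G15750, described as an invertase or pectin methylesterase inhibitor family protein, had 68.2, 1292 and 13.5 in *bp er fil-10*, against 7424, 5759.6 and 2429.5 in *bp er*. Its log2 difference was -5.47 ± 0.79 (SE with the block), with a limma adjusted p of 0.0134 with the block, and -4.32 with signals under 100 raised to 100. AT5G47350 had 113, 824 and 73.7 in *bp er fil-10*, against 3912, 2856 and 1393 in *bp er*, a difference of -3.72 ± 0.49 (SE with the block) with a limma adjusted p of 0.00966. AT1G56100 had 136, 612 and 64.9 in *bp er fil-10*, against 3524, 2357 and 776 in *bp er*, a difference of -3.41 ± 0.40 (SE with the block) with a limma adjusted p of 0.00827. In all 3 the *bp er* arrays were high on replicates 1 and 2. The *bp er fil-10* replicate 2 array was several times higher than replicates 1 and 3, and these 3 genes met the shift in that genotype only through it. Without that array, and with signals under 100 raised to 100, a setting chosen after seeing the data, the log2 differences were -5.55 for AT4G15750, -4.56 for AT5G47350 and -3.99 for AT1G56100. AT5G40690 had 239, 346 and 110.3 in *bp er fil-10*, against 705, 534 and 264 in *bp er*, a difference of -1.15 ± 0.22 (SE with the block) with a limma adjusted p of 0.0299. AT5G39520, a protein of domain family DUF1997, had 133, 532 and 16.8 in *bp er fil-10*, against 883, 558 and 156 in *bp er* and was not called, with an adjusted p of 0.0623 from limma with the block. Its difference was -2.0, or -1.15 with signals under 100 raised to 100.

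Of the members with symbols, none was called with the block. Without replicate 3, limma called *PWD* higher, by 0.58 with an adjusted p of 0.0229, and *IVD* higher, by 0.62 with an adjusted p of 0.0269. *LTI30* was called lower there, with a log2 difference of -0.99 and a limma adjusted p of 0.00594, but on replicate 3 it was higher in *bp er fil-10*, at 173 against 74.5 in *bp er*. The other genes called only without replicate 3 were AT3G47160, AT2G15880, AT3G62950, AT1G22890 and AT4G05070, all higher in *bp er fil-10* in that fit. On replicate 3, AT2G15880 was lower in *bp er fil-10*, at 65.5 against 131 in *bp er*. AT3G62950, of the thioredoxin superfamily, had 465, 446 and 94.3 in *bp er fil-10*, against 172, 303 and 5.9 in *bp er*. AT4G30650 and *PDC2* were lower in *bp er fil-10* by a mean of 0.39 and 0.18 on the log2 scale, without a call in any of these fits. AT1G05340, with 534, 1019 and 113 in *bp er fil-10*, against 880.4, 1138 and 275 in *bp er*, was lower in every pair and had a limma adjusted p of 0.103 with the block.

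**Figure D4:**
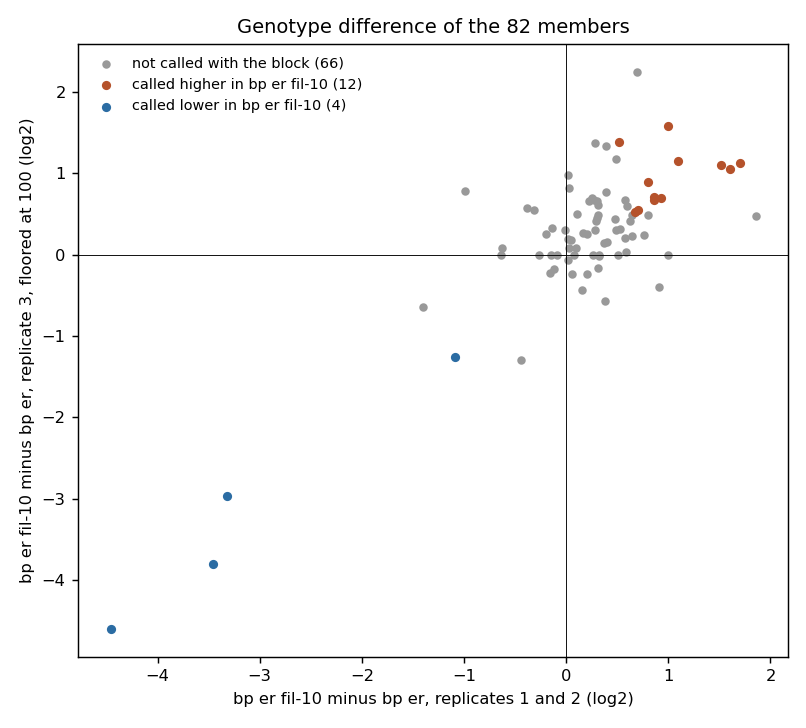
Genotype difference of the 82 members, *bp er fil-10* minus *bp er* in log2 signal, in the mean of replicates 1 and 2 (horizontal axis) and on replicate 3 with signals floored at 100 (vertical axis). Orange and blue points were called higher (12) and lower (4) with the replicate number as a block, and grey points were not called. On replicate 3, 57 members lie above 0 and 9 lie at 0 because both signals are at the floor.

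The direction was seen on replicate 3 alone and in the mean of replicates 1 and 2. On replicate 3 alone, 57 members were higher in *bp er fil-10* and 9 were equal at the floor, with a median log2 difference of 0.31, against 0.05 over all probe sets tested. On replicates 1 and 2 the median was 0.30, against 0.04, and 63 members were higher. In all 3 same-numbered pairs 44 members were higher in *bp er fil-10*, where 25.1% of all probe sets tested were, and 7 were lower, where 18.6% were. Past a fold of 1.9 between the genotype means, 12 members were higher in *bp er fil-10*, where 2.47% of all probe sets were, and 5 were lower, where 1.93% were. At 2.5-fold the members were 5 higher, against 0.837% of all probe sets, and 4 lower, against 0.699%. Without replicate 3, 4 members were higher at that fold, against 0.733% of all probe sets, and 4 lower, against 1.2%. Leaving out 1 array unbalances the replicate 3 signals, so the 1.9-fold count ran from 4 to 41 higher and from 3 to 12 lower.

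Position on the chromosomes was taken from the RefSeq annotation (TAIR10.1). Members lay on all 5 chromosomes, with 18 probe sets on chromosome 1, 12 on chromosome 2, 18 on chromosome 3, 16 on chromosome 4 and 18 on chromosome 5. Chromosome 4 held 19.5% of the members and 14.5% of all one-gene probe sets, and the other chromosomes differed by less than this. Among 5878 pairs of neighbouring genes that both had a one-gene probe set, 3 pairs were both members. They were *GID1A* and AT3G05130, *PORB* and AT4G27450, and AT4G30650 and AT4G30660. AT4G30660 had 2155, 1519 and 692 in *bp er fil-10*, against 2418, 2302 and 462 in *bp er*, a smaller fall than its neighbour AT4G30650. AT4G33985, near the threshold, is next to AT4G33980, one of the genes set aside. The median gene length was 1791 bases for members and 2382 bases for the 5705 well-measured probe sets.

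Of 291 genes in 19 lists of pathways and cell types, 47 were analysed here through a one-gene probe set, and *LTI30*, *COR15B*, *IVD*, *STZ* and AT2G47890 were the members among them. The list of clock genes of the afternoon and evening had 3 measured genes, *GI*, *COR27* and AT4G33980, and all 3 met the shift and were set aside by name. The lists of morning clock, shade, jasmonate and abscisic acid genes were not analysed here. Genes outside the set show how far replicate 3 differed as a whole. The median signal of an array was between 203 and 215 in *bp er fil-10* and between 193 and 211 in *bp er*. Only 31 one-gene probe sets were higher by 1 or more on both replicate 3 arrays, against 87 lower. Over all probe sets that were not controls, annotated or not, these counts were 84 and 193. Of the 193, 106 had several annotated genes or none. Reference genes, 3 measured of 11 listed, had shifts between -0.26 and 0.02 in *bp er fil-10* and between -0.36 and -0.05 in *bp er*. The ratio of 3' to 5' signal of the array's Arabidopsis controls is a sign of RNA integrity. For actin it was 2.92, 2.26 and 2.62 in *bp er fil-10*, against 2.78, 3.32 and 2.46 in *bp er*, and for GAPDH 1.05, 0.886 and 0.93 in *bp er fil-10*, against 0.799, 0.949 and 0.923 in *bp er*. For ubiquitin it was 1.06, 1.0 and 0.993 in *bp er fil-10*, against 0.904, 0.938 and 1.395 in *bp er*. Replicate 3 of *bp er* thus had the highest ubiquitin ratio of the 6 arrays and the lowest actin ratio of its genotype. Their part in the falls was not tested. Floral markers were sparse. *CLV3* and *UFO*, of the meristem, were under 100 on all arrays, whereas AT5G07230, listed as a gene of the tapetum, the nurse tissue of the anther, had 6253, 6567 and 8187 in *bp er fil-10*, against 5567, 4735 and 4782 in *bp er*. *AMS*, the other tapetum gene measured, had 136, 136 and 99.1 in *bp er fil-10*, against 132, 129 and 117 in *bp er*, so that on replicate 3 of *bp er fil-10* the first was higher and *AMS* lower. Pollen genes had low signals, with *ANX1*, *ANX2* and *ACT12* between 14.1 and 273. On replicate 3, *ANX2* and *ACT12* were higher in *bp er fil-10*, with shifts of 0.65 and 0.48, and lower in *bp er*, with -0.67 and -0.35. The part of pollen genes in the falls was not tested.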

How the data were processed

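Per the study's methods, total RNA was copied with oligo dT, amplified with biotin labelling and hybridized to ATH1 arrays. The authors extracted the MAS intensity of every probe set in GCOS and scaled it linearly to a target of 500. The deposited intensity is linear and carries no detection call. It is not an absolute amount, so probe sets were not ranked by amount, and the number of arrays, 3 per genotype, limits the precision.

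Deposited intensity was taken to log2, with the 1 value of 0 set to 0.1. Probe sets that reached 100 on 3 or more of 6 arrays were kept (14456 of 22746, with 64 controls left out). Genotypes were compared with limma 3.58.1 in R 4.3.3 by lmFit and eBayes with the trend option, and 2-sided p-values were adjusted by the method of Benjamini and Hochberg across all probe sets kept. Tables were made with Python 3.11.15, pandas 2.3.3, numpy 2.4.6 and scipy 1.17.1, and the fit was tested on simulated data. Gene names came from the platform annotation, updated through RefSeq gene IDs, with 503 probe sets of several genes left out. Descriptions of gene products were not part of that annotation and are given as background.

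To see whether replicate numbers pair the arrays, each array's deviation from its genotype mean was correlated with that of the same number in the other genotype. The correlations were 0.103, 0.221 and 0.380, each over the limit of 0.1, so the arrays were treated as paired in the blocked fit. The basis is narrow, since without the members the first value is 0.0801. Across numbers, *bp er fil-10* replicate 1 correlated at 0.225 with *bp er* replicate 2, and *bp er fil-10* replicate 2 at 0.183 with *bp er* replicate 1. Deviations from a genotype mean cancel out, so a difference shared by the replicate 3 arrays raises every correlation among replicates 1 and 2. These values therefore cannot show that replicates 1 and 2 pair by number, which the blocked fit assumes.

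The members and gene lists were chosen with earlier results of these data known. Named members were the 25 with the most negative larger shift, those in a gene list, the 8 with the smallest blocked p in each direction and the 3 nearest the threshold, with the 3 probe sets just outside it. Promoter motifs were not analysed here. Keyword classes were counted on gene symbols and synonyms only, and these counts are not reported here.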

Additional observations from a re-analysis of the deposited data

How the results depend on the processing

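Under the other rules, 60 (floor at 200) to 106 (floor at 50) probe sets met the shift, and 75 after centring on the median and 81 after quantile normalization, with 60, 81, 74 and 79 of them among the members. Without replicate 1 there were 94, and without replicate 2 there were 65.

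With the replicate number as a block, limma called 232 probe sets higher and 308 lower, in place of 0 and 1, and 12 members higher and 4 lower in place of 0 and 0. With signals floored at 100 it called 1 higher and 17 lower over all probe sets, and with arrays centred on the median 1 and 14. Without replicate 3 of both genotypes it called 690 higher and 696 lower, and 19 and 5 members. With single arrays left out, 0 to 41 probe sets were called higher and 1 to 82 lower, 0 members higher and 0 to 2 lower. The 2 were AT5G47350 and AT4G15750, without *bp er fil-10* replicate 2. The number of members higher in *bp er fil-10* ran from 25, without *bp er* replicate 3, to 77, without *bp er fil-10* replicate 3, and the median log2 difference from -0.24 to 0.90. Leaving out 1 array leaves the low replicate 3 signals unequally divided between the genotypes.

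Of 16 named members under 13 settings, 174 differences kept their direction and side of the threshold, 26 gained a call and 8 turned. Those that turned did so with 1 array left out, and ranged from -0.07 to 1.70 for AT3G15630, -1.41 to 0.18 for AT1G05340, -1.79 to 0.77 for AT4G30650 and -0.58 to 0.25 for *PDC2*.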

Other observations

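Of the listed genes outside the set, some came near the threshold without meeting it in both genotypes. *HAT2*, *MCCA* (also left out by name) and *SPT* are given as examples. *WES1* (GH3.5), also left out by name, had shifts of -1.21 in *bp er fil-10* and -0.69 in *bp er*. *EXO* and *SWEET9* went other ways. *HAT2*, an auxin-induced homeobox gene, had 773, 1126 and 429 in *bp er fil-10*, against 422, 719 and 346 in *bp er*, with shifts of -1.12 in *bp er fil-10* and -0.67 in *bp er*. *MCCA*, a subunit of the carboxylase of leucine breakdown, had 2032, 2044 and 593 in *bp er fil-10*, against 733, 1097 and 465 in *bp er*, with shifts of -1.78 in *bp er fil-10* and -0.95 in *bp er*. *SPT*, a bHLH factor of carpel growth, had 424, 541 and 274 in *bp er fil-10*, against 293, 544 and 229 in *bp er* and fell by less than the threshold in both genotypes, with shifts of -0.81 in *bp er fil-10* and -0.80 in *bp er*. *EXO* went opposite ways on replicate 3, with 1651, 3138 and 4055 in *bp er fil-10*, against 1456, 5892 and 1206 in *bp er*. *SWEET9*, the nectary sugar transporter, was higher on replicate 3 in both genotypes, with 646, 369 and 777 in *bp er fil-10*, against 1061, 842 and 2711 in *bp er*. Each replicate 3 value is from 1 array, and none of these shifts was tested.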
